A study of Mus musculus with 12 samples.

Results

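Cytosolic ribosomal protein genes were taken as the rows of the count table whose symbol is Rpl or Rps with a number (a trailing a, l, x or y and 1 digit allowed) or is Rplp0, Rplp1, Rplp2 or Rpsa, with at least 1000 counts summed over all libraries. Names of S6 kinases and names ending in -ps were left out. Of 50643 genes, 88 carried such a symbol and 81 reached the sum: 33 of the small (40S) and 48 of the large (60S) subunit. All 81 also passed the filter on low counts. The member nearest the limit was Rps4l with a sum of 1559, a row that the GENCODE vM21 annotation types as a transcribed processed pseudogene, while the other 80 are protein-coding. Below it lay Rpl39l (82), Rps3a3 (31), Rpl3l (19), Rpl6l (11), Rps3a2 (9), Rpl10l (0) and Rps12l1 (0).

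RNA came from splenic natural killer (NK) cells of C57BL/6 mice, lymphocytes that kill infected cells, isolated by negative selection. The 4 groups of 3 libraries were wild-type unchallenged, wild-type challenged with Listeria, Mirc11-/- unchallenged and Mirc11-/- challenged with Listeria, an intracellular bacterium. Mirc11-/- lacks a microRNA cluster (miR-23a with miR-27a and miR-24-2) and is called knockout here. Unchallenged libraries are numbered 2 to 4 and challenged ones 1 to 3, as in their short titles. Neither age nor dose nor time after challenge is stated in the labels, which do not say that each library came from a separate animal, so p-values measure the spread between these libraries only.

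Libraries held 17624530 to 23665679 counts. NK markers were abundant everywhere (10 genes, summed to at least 4240 counts per 1000000, CPM), but markers of other cells were present and moved with the groups: 9 erythroid genes ranged from 1817 to 41056 CPM and 7 neutrophil genes from 37.3 to 1726 CPM. Xist, transcribed from the inactive X chromosome of females, was at most 1.06 CPM in unchallenged knockout libraries and at least 523 CPM in all others. The Y-linked Ddx3y was at least 34.1 CPM in all 6 knockout libraries and in wild-type unchallenged replicate 4, which thus carried both transcripts, and at most 0.14 CPM in the other 5, so sex and genotype cannot be told apart. The libraries of challenged knockout also carried both, with Xist at 523 to 1019 CPM, so the knockout's challenge change and its difference from that of wild-type cannot be told apart from sex either. The microRNA precursor rows Mir23a, Mir27a and Mir24-2 had no counts in any library and check nothing.

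The ribosome is built from ribosomal RNAs and a large set of proteins, most needed in equal amount, and cells raise the supply of these proteins when they grow or become activated. Many of the mRNAs start with a run of pyrimidines, the 5′ terminal oligopyrimidine (TOP) motif, through which mTORC1 and the binding protein LARP1 control their translation. The genes are also known for having left many processed copies (intronless reinsertions of the mRNA) in the mouse genome, whose near-identical sequence makes short reads hard to place.

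Annotated start sites were searched for runs of pyrimidines. A run anywhere in a start window was counted, so it need not be a TOP motif, and genes without one may still have it. RefSeq start windows (GRCm38.p6, 15 bases before to 15 after the start) were found for 60 members. Of these, 27 (45.0%) held a run of at least 8 C or T on the coding strand, against 13.9% of all 27025 genes with such windows. A gene was counted if any of its windows held a run, and the number of windows per gene was not adjusted for. Rps27 and Rps6, not called on challenge of wild-type on their own rows, also held such a run. The windows of 4 other members are printed 5′ to 3′ with the longest run in capitals. They are 3 members that rose on challenge of wild-type, and Rpl7l1, which rose without such a run.
Rpl7a, chr2:26910792-26910821, + strand: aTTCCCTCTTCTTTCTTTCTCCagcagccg
Rpl35, chr2:39005117-39005146, - strand: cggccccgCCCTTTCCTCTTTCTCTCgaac
Rpl28, chr7:4792950-4792979, + strand: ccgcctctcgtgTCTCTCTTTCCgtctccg
Rpl7l1, chr17:46782642-46782671, - strand: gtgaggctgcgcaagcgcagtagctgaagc

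Copies matter for reading the members' counts, and Rpl3 shows how little separates a gene from its copy. Rpl3-ps1 lies on the X chromosome (chrX:13202571-13203780, + strand, GRCm38) and matches the Rpl3 mRNA over all of its 1210 bases with 2 differences, C58A and T787C, counted from 1 at the copy's 5′ end with the base of Rpl3 first. Both fall on the last base of a codon of Rpl3 (codons 19 and 262). The 29 bases around each are shown with the differing base in capitals.
Rpl3, around C58A: ggcttcctgcctcgCaagcgcagcagccg
Rpl3-ps1, around C58A: ggcttcctgcctcgAaagcgcagcagccg
Rpl3, around T787C: caccctgcccgtgtTgccttctctgtggc
Rpl3-ps1, around T787C: caccctgcccgtgtCgccttctctgtggc

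Ribosomal protein transcripts took up a similar part of each library. For wild-type, members held 5.01% ± 0.11 of all counts before and 5.46% ± 0.45 after challenge (SD, n = 3). For the knockout the shares were 5.16% ± 0.23 before and 5.31% ± 0.40 after. With their copies these 4 shares became 5.67% ± 0.12, 6.22% ± 0.45, 5.85% ± 0.25 and 6.07% ± 0.40. The libraries of challenged wild-type ranged from 5.02% to 5.92%, a range wider than the distance between the wild-type means.

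Per kilobase of coding sequence, members in unchallenged wild-type libraries covered a 177-fold range around a median of 1224 CPM per kilobase. Rpl41, the shortest ribosomal protein gene with 75 coding bases, stood highest at 7392 CPM per kilobase, followed by the stalk protein gene Rplp1 (3093) and Rps27 (2885). At the low end were Rpl5 (41.8), Rpl27 (58.1) and the paralog Rpl7l1 (76.6). With copies counted, Rpl5 and Rpl27 left the low end, where the paralogs Rpl7l1 (76.6), Rps27l (99.3) and Rpl22l1 (294 CPM per kilobase) remained.

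**Figure D1:**
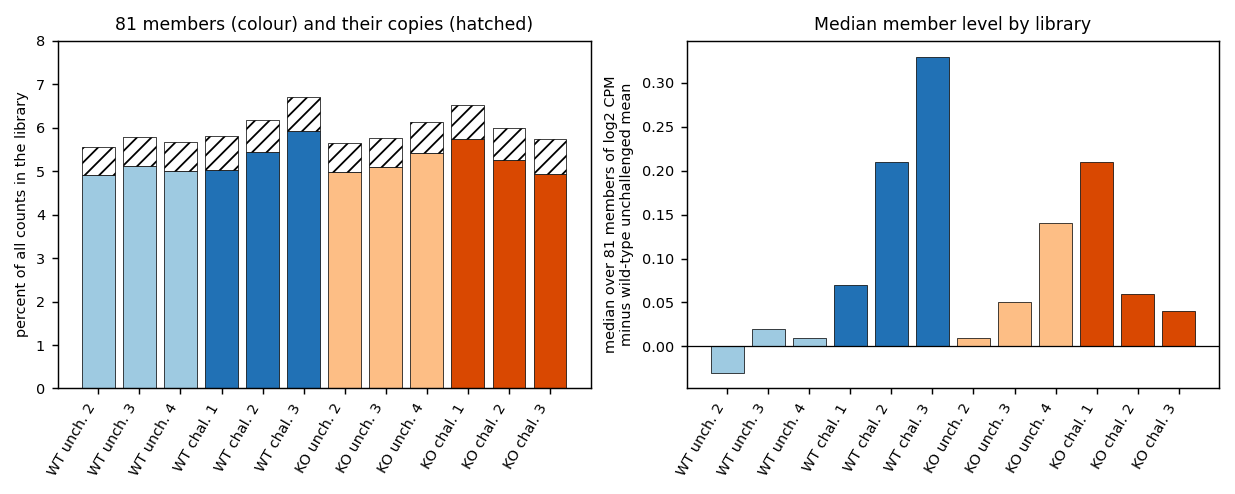
Left, percent of each library's counts on the 81 members (colour) and on their copies (hatched); right, median over the members of log2 CPM minus the mean of unchallenged wild-type. WT is wild-type, KO is knockout, unch. and chal. are unchallenged and challenged, and the number is the replicate; challenged wild-type runs from 0.07 to 0.33 and challenged knockout from 0.04 to 0.21.

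Challenge of wild-type mice was accompanied by a small, broad rise of ribosomal protein transcripts. Of the 81 members, 43 rose (53.1%) and 0 fell (edgeR's quasi-likelihood test, adjusted p below 0.05 over all tested genes), where 32.4% of all genes rose and 30.9% fell. No member had an unadjusted p under 0.05 for a lower level, and DESeq2 also called 0 lower. The median member changed by 0.23 on the log2 scale (17.4% more), beside -0.01 for all genes. Libraries of the 2 groups did not overlap in 41 members, all higher after challenge; 35.1% of all genes were higher and 34.5% lower by that measure. Rises were found in 15 of 33 small-subunit and 28 of 48 large-subunit members.

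The size of that rise differed between libraries. Relative to the mean of unchallenged wild-type, the median member stood at 0.07, 0.21 and 0.33 on the log2 scale in challenged replicates 1, 2 and 3. Replicate 1 was the lowest of its group for 61 members and replicate 3 the highest for 73. Without replicate 1, 56 members rose, and over all single libraries left out the count ran from 34 to 56. With upper-quartile scaling, which moved the median of all genes from -0.01 to -0.12, 29 members rose and 2 fell.

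Marker levels of other cells moved with the wild-type rise. The summed NK markers went from between 6776 and 7823 CPM to between 4240 and 4312, and neutrophil markers from at most 43.4 to at least 1437 CPM. Haemoglobin transcripts went from 1.21% to 0.197% of counts. With haemoglobin and immunoglobulin rows left out, 44 members rose; the part of the other cell markers in the result was not tested. In bulk RNA, a change in how many cells of a type are present and in RNA per cell cannot be told apart.

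**Figure D2:**
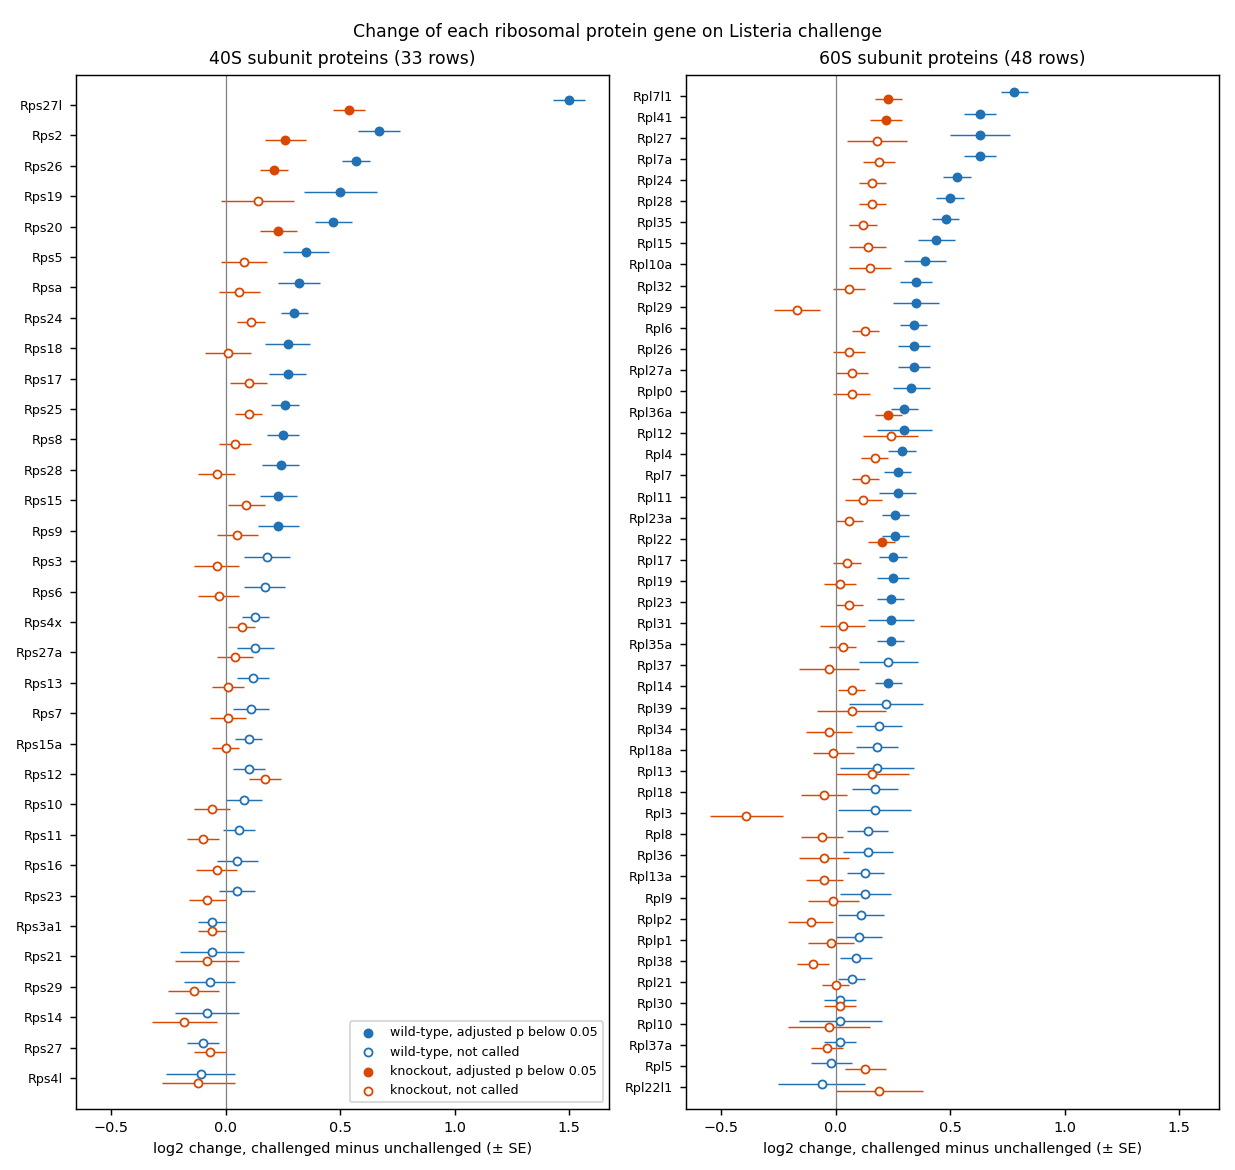
Log2 change on challenge for each member, with its SE, in wild-type (blue) and knockout (orange), 40S left and 60S right, sorted by the wild-type change; filled points passed an adjusted p of 0.05. Nearly all blue points lie right of 0 (73 of 81), with Rps27l farthest at 1.50, while orange points scatter around a median of 0.05.

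Among the small-subunit genes, the most changed was Rps27l, a paralog of Rps27 that is a known p53 target. It measured 23.8, 26.0 and 25.3 CPM before challenge of wild-type and 67.7, 69.3 and 75.2 CPM after it. All challenged libraries lay far above all unchallenged ones, a 2.83-fold rise (log2 1.50 ± 0.07, where ± gives the SE after every log2 change, edgeR adjusted p = 8.98e-11). In knockout libraries it measured 29.1, 30.3 and 27.8 CPM before and 41.5, 44.5 and 41.0 CPM after challenge. These did not overlap either, but the rise was smaller (1.45-fold, log2 0.54 ± 0.07, adjusted p = 4.47e-05).

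The challenge changes of Rps27l differed between genotypes by -0.96 ± 0.10 on the log2 scale (knockout minus wild-type, edgeR adjusted p = 3.57e-06). Rps27 itself, the more abundant partner, measured 703, 717 and 761 CPM in unchallenged and 661, 646 and 735 CPM in challenged wild-type libraries, which overlap. Its log2 change was -0.10 ± 0.07 (adjusted p = 0.236). The share of Rps27l in the counts of the pair thus went from 3.33% ± 0.15 to 9.42% ± 0.23 in wild-type, and from 3.53% ± 0.36 to 5.28% ± 0.18 in knockout libraries.

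Rps2, which lines the mRNA entry channel of the 40S subunit, showed the next largest change. It went from 784, 860 and 827 CPM to 1193, 1323 and 1406 CPM on challenge of wild-type, with no overlap (log2 0.67 ± 0.09, edgeR adjusted p = 8.35e-06). In the knockout it went from 822, 854 and 906 CPM to 1187, 950 and 955 CPM, where challenged replicate 1 stood well above the other two. The log2 change there was 0.26 ± 0.09 (adjusted p = 0.0391), and without challenged replicate 1 it was 0.15 (adjusted p = 0.14).

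Other small-subunit genes that rose in wild-type included Rps26 (log2 0.57 ± 0.06) and Rps20 (0.47 ± 0.08), both also called in the knockout at 0.21 ± 0.06 and 0.23 ± 0.08. Rps19, the gene most often mutated in Diamond-Blackfan anaemia, measured 515, 582 and 552 CPM before and 582, 843 and 911 CPM after challenge of wild-type. Its challenged replicate 1 was level with an unchallenged library at the printed precision, and its rise (log2 0.50 ± 0.16, edgeR adjusted p = 0.0167) was not called without challenged replicate 2 or 3 or unchallenged replicate 2 (adjusted p = 0.0549, 0.0674 and 0.0575), nor with no filter on low counts (0.0594). Rpsa, the laminin receptor protein of the 40S head, rose by 0.32 ± 0.09.

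Rps6, the S6 kinase substrate, and Rps3, at the mRNA entry, were not called in wild-type (log2 0.17 ± 0.09 and 0.18 ± 0.10, edgeR adjusted p = 0.117 and 0.132). Rps6-ps4, a copy with no difference to Rps6 over 750 bases, also carried counts, and which of them came from Rps6 cannot be told apart. The copy measured 283 CPM in challenged wild-type replicate 1, 146 and 98.9 CPM in challenged knockout replicates 2 and 3, and at most 5.83 CPM in all other libraries. With all copies added to it, Rps6 in wild-type measured 1184, 1202 and 1174 CPM before and 1427, 1374 and 1490 CPM after challenge. The groups then did not overlap and Rps6 rose (log2 0.27 ± 0.06, adjusted p = 0.00108).

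Among the large-subunit genes, Rpl7l1 changed most. It is a paralog of Rpl7 that acts in assembly of the 60S subunit. It measured 57.5, 53.4 and 58.8 CPM in unchallenged and 96.1, 92.7 and 102 CPM in challenged wild-type libraries. The rise (log2 0.78 ± 0.06, edgeR adjusted p = 3.02e-08) stood beside one of 0.27 ± 0.06 for Rpl7 itself, and the share of Rpl7l1 in the pair's counts went from 5.34% ± 0.22 to 7.41% ± 0.26. In the knockout Rpl7l1 went from 59.1, 58.3 and 62.8 CPM to 71.3, 69.8 and 69.6 CPM, again without overlap (log2 0.23 ± 0.06, adjusted p = 0.0132).

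The third paralog was not called. Rpl22l1, whose product can replace Rpl22 and is known from lymphocyte development, measured 115, 100 and 107 CPM in unchallenged and 77.3, 125 and 107 CPM in challenged wild-type libraries. The challenged libraries spread on both sides of the unchallenged ones (log2 -0.06 ± 0.19, edgeR adjusted p = 0.803). Rpl22 rose in both genotypes, by 0.26 ± 0.06 and 0.20 ± 0.06. Rps4l, the pseudogene row resembling Rps4x, measured between 4.53 and 8.70 CPM in all libraries.

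**Figure D3:**
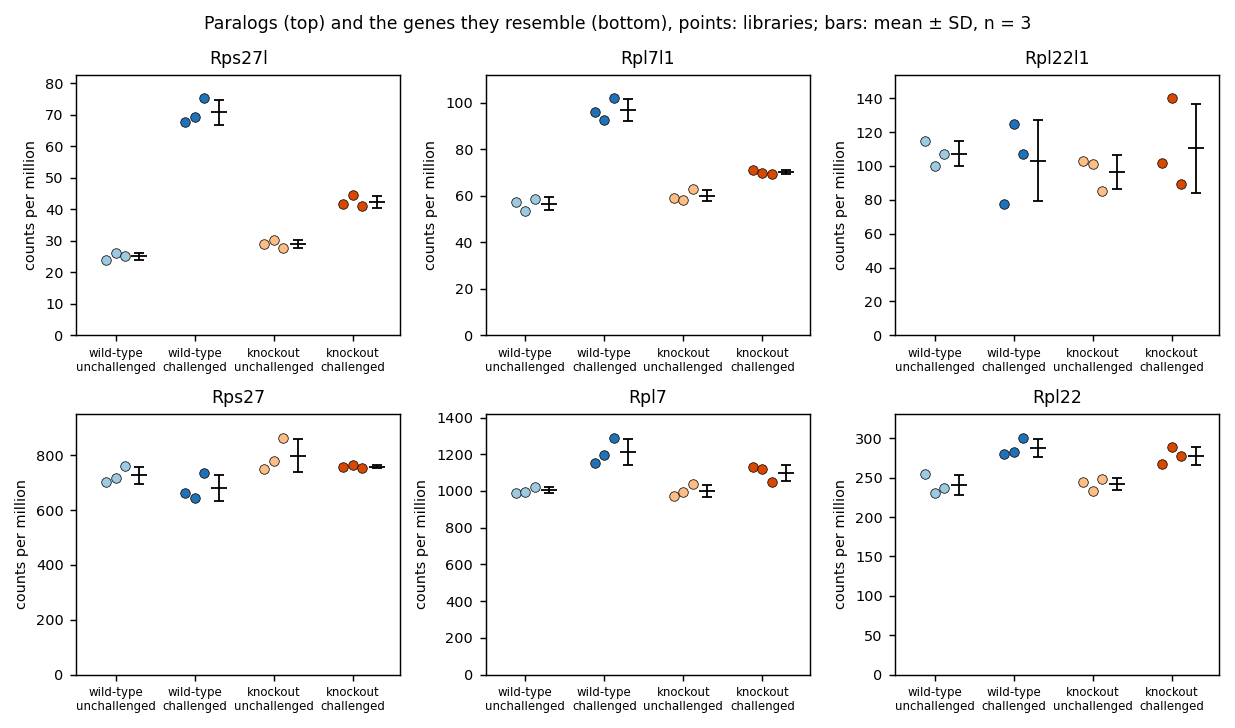
CPM of 3 paralogs (top) and of the genes they resemble (bottom) in each library, with mean ± SD at the side (n = 3 per group). Rps27l and Rpl7l1 separate challenged from unchallenged wild-type without overlap, with challenged knockout between them, while Rpl22l1 overlaps between all groups.

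On their own rows, Rpl7a, Rpl41 and Rpl27 rose next most among large-subunit genes of wild-type, each by 0.63 on the log2 scale (SE 0.07, 0.07 and 0.13). For Rpl27, copies held 93.8% of the counts, and with copies its rise was 0.24 ± 0.09. Rpl7a, an early-assembling protein of the subunit's solvent side, went from 616, 637 and 616 CPM to 979, 926 and 986 CPM. Rpl41 went from 530, 575 and 558 CPM to 821, 853 and 907 CPM. Neither overlapped, and their edgeR adjusted p-values were 1.06e-06 and 1.95e-06. Rpl24 (0.53 ± 0.06), Rpl28 (0.50 ± 0.06) and Rpl35 (0.48 ± 0.06), the last at the exit of the peptide tunnel, followed.

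The stalk that recruits elongation factors did not move as 1 unit. Its base Rplp0 rose in wild-type (log2 0.33 ± 0.08, from 1410, 1476 and 1407 to 1670, 1788 and 1957 CPM), while the changes of Rplp1 (0.10 ± 0.10) and Rplp2 (0.11 ± 0.10) were not called. Differences between these changes were not tested. Rpl4, lining the tunnel, rose by 0.29 ± 0.06, and Rpl13a, known from translational silencing in monocytes, changed by 0.13 ± 0.08 (edgeR adjusted p = 0.17).

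Of the pair that carries 5S RNA and binds Mdm2, Rpl11 rose (log2 0.27 ± 0.08) and Rpl5 did not pass the test (-0.02 ± 0.09). Rpl5 had only 41.5, 32.4 and 37.9 CPM in wild-type before challenge, and 96.4% of the counts of the gene and its copies lay on copies, mainly Gm15500, which is identical over 1018 aligned bases. With copies, Rpl5 measured 1044 ± 24 CPM in unchallenged and 1085 ± 64 CPM in challenged wild-type libraries (SD, n = 3), which overlap (log2 0.06 ± 0.06, edgeR adjusted p = 0.404).

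Of the 4 X-linked members, Rpl36a rose in both genotypes (log2 0.30 ± 0.06 and 0.23 ± 0.06). On their own rows Rps4x, Rpl10 and Rpl39 were not called in any comparison. Of 24 alternative fits, 3, 2 and 1 called them on challenge of wild-type. Copies held 65.8% of the counts of Rpl10. With copies it measured 1086, 1121 and 1138 CPM before and 1111, 1320 and 1403 CPM after challenge of wild-type, which overlap. Between genotypes the X-linked changes ran from -0.11 to 0.12 without and from -0.15 to -0.02 with challenge. Rps27a, which is made as a fusion with ubiquitin, was not called in wild-type (0.13 ± 0.08, edgeR adjusted p = 0.142). Fau, whose product is a fusion of a ubiquitin-like protein with a 40S protein and lies outside the member rule, rose (0.31 ± 0.08).

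In the knockout, few ribosomal protein transcripts passed the test on challenge. Of the members, 8 rose (9.88%) and 0 fell (edgeR), below the 15.6% of all genes that rose and the 11.5% that fell. At an unadjusted p under 0.05, 14 were higher and 1 lower, where 6232 of all 16694 genes passed in either direction. DESeq2 called 10 members higher and 1 lower. The median change was 0.05. The 8 were Rps27l, Rps2, Rpl36a, Rpl7l1, Rps20, Rpl41, Rps26 and Rpl22, with changes from 0.20 to 0.54.

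Single libraries moved that count. It was 1 without unchallenged replicate 2, the lowest of its group for 60 members, and to 2 without unchallenged replicate 3. Without challenged replicate 1, the highest of its group for 63 members, 5 members rose and 4 fell. Without wild-type unchallenged replicate 4 or wild-type challenged replicate 2, which enter through the shared spread, it was 5. The comparisons share groups, so their counts are not independent of each other. Libraries of the 2 groups did not overlap for 13 higher and 2 lower members, against 20.3% and 18.9% of all genes.

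Without challenge, the genotypes differed little in ribosomal protein transcripts. No member was called by edgeR or DESeq2 in either direction, where 6.64% of all genes were higher and 5.07% lower in the knockout. At an unadjusted p under 0.05 there were 2 members, Rps27l (log2 0.22 ± 0.07, edgeR adjusted p = 0.0726) and Rps4l (-0.41 ± 0.16, adjusted p = 0.118). Of all 16694 genes, 3740 passed that limit in either direction. The median difference was 0.06 with 71 of 81 members higher in the knockout. It was 0.03 without knockout replicate 4, the highest of its group for 71 members, and ran to 0.10 without knockout replicate 2 or wild-type replicate 3. Of the members, 24 were higher and 2 lower without overlap, against 15.9% and 15.7% of all genes. Markers of other cells differed between these groups. Neutrophil markers summed to at least 406 CPM in knockout and at most 43.4 CPM in wild-type, and erythroid markers to at least 36371 and at most 13282 CPM. All 5 B cell markers were called lower in knockout, and 0 of 10 NK markers were called. The part of these markers in the member levels was not tested.

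After challenge, ribosomal protein transcripts stood somewhat lower in knockout than in wild-type libraries. By edgeR 17 members were lower and 0 higher, a share of 21.0%, which is under the 25.9% of all genes that were lower and 22.7% that were higher. The median member differed by -0.13 (8.88% less), beside 0.00 for all genes. That median was -0.07 without wild-type challenged replicate 3, and -0.20 without knockout challenged replicate 1. At an unadjusted p under 0.05, 26 were lower and 2 higher, where 9108 of all 16694 genes passed in either direction. DESeq2 called 26 members lower and 0 higher. Libraries did not overlap for 18 lower and 2 higher members, against 28.1% and 24.8% of all genes. Without wild-type challenged replicate 1, 32 members were lower, without replicate 3 of that group 10, and without knockout challenged replicate 1, 40.

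The largest of these differences were those of Rps27l (log2 -0.74 ± 0.07, edgeR adjusted p = 4.48e-07), Rpl3 (-0.54 ± 0.16), Rpl7l1 (-0.46 ± 0.06), Rps4l (-0.42 ± 0.16) and Rpl7a (-0.41 ± 0.07). Rpl29, Rpl27, Rpl28, Rps2 and Rpl41 followed between -0.40 and -0.32. With copies added, Rpl27 was no longer called (-0.38 ± 0.12 on its own row, -0.20 ± 0.09 with copies, edgeR adjusted p = 0.0997), and its libraries overlapped at 452, 518 and 559 CPM in challenged wild-type and 511, 413 and 410 CPM in challenged knockout. The remaining 7, Rpl15, Rps26, Rpl35, Rpl24, Rps20, Rpl32 and Rpl6, lay between -0.29 and -0.18. Of these, Rps20, Rpl32 and Rpl6 lost their calls in 16, 11 and 8 of 24 alternative fits. For Rps4l the level was under 9 CPM and the call was lost without any 1 of 6 libraries.

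The challenge changes themselves differed between the genotypes for 11 members, all with the smaller rise or the lower value in knockout (edgeR; 13.6%, beside 18.5% of all genes lower and 16.7% higher). At an unadjusted p under 0.05 there were 23, all lower, where 7402 of all 16694 genes passed in either direction. DESeq2 called 21 members lower and 0 higher. Rps27l and Rpl7l1 (-0.55 ± 0.09, adjusted p = 0.000171) came first, then Rpl29 (-0.53 ± 0.14), Rpl7a (-0.44 ± 0.10), Rpl41 (-0.42 ± 0.10) and Rps2 (-0.41 ± 0.12). The median difference was -0.18. Without wild-type challenged replicate 1 there were 21 and without knockout challenged replicate 1 there were 35. Markers moved with this comparison too. Neutrophil markers summed to between 675 and 1046 CPM in challenged knockout and to between 1437 and 1726 CPM in challenged wild-type. Of these 7 markers, 5 were called lower and 2 higher in challenged knockout than in challenged wild-type. The challenge changes of all 7 were called lower in the knockout (median difference -3.96). Unchallenged knockout libraries already stood at 406 to 420 CPM, against 37.3 to 43.4 CPM in unchallenged wild-type. In challenged knockout and challenged wild-type, in that order, erythroid markers summed to at least 19340 and at most 2425 CPM, and T cell markers to at least 197 and at most 142 CPM. NK markers summed to 5270 to 5905 and to 4240 to 4312 CPM in these groups. Of the 10 NK markers, 7 had a higher and 1 a lower challenge change in the knockout (median difference 1.06). Macrophage and monocyte markers summed to 649 to 857 and to 1053 to 1235 CPM. The part of these markers in the difference was not tested.

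Rpl3, whose product reaches the peptidyl transferase centre, lost its call when its copies were counted with it. Its own row in wild-type measured 1208, 1261 and 1198 CPM before and 1276, 1377 and 1477 CPM after challenge. In the knockout it went from 1210, 1206 and 1298 CPM to 1159, 1030 and 643 CPM, the latter below every other library. The replicate with 643 CPM stood far below the other two.

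Its copy Rpl3-ps1 was high where Rpl3 was low. It measured 218, 177 and 535 CPM in challenged knockout replicates 1 to 3 (5188, 3917 and 11603 counts). In the other 9 libraries it had 0 counts except 7 in wild-type challenged replicate 2 and 5 in knockout unchallenged replicate 3. Copies held 15.9%, 14.8% and 45.5% of the counts of Rpl3 and its copies in the challenged knockout, and at most 0.125% elsewhere. Summed, Rpl3 and its copies measured 1378, 1208 and 1179 CPM there, against 1277, 1379 and 1479 CPM in challenged wild-type, so the groups overlapped. The genotype difference after challenge went from -0.54 ± 0.16 (edgeR adjusted p = 0.015) for the row alone to -0.13 ± 0.07 (adjusted p = 0.136) for the sum, and Rpl3 was no longer called.

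Copies of Rpl29 were also counted mainly in the challenged knockout. Rpl29, a heparin-binding protein of the 60S subunit, has copies named Gm13841 (chr5:115801677-115802159, - strand) and Gm8210 (chr1:43189156-43189638, + strand), each with 3 differences over 483 bases. For Gm13841 these are C72A, C300T and T423C, counted as before, each on the last base of an Rpl29 codon. The last of them reads as follows.
Rpl29, around T423C: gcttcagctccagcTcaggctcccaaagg
Gm13841, around T423C: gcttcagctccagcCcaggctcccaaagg

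Gm13841 and Gm8210 carried the same counts in every library: 14.8, 11.6 and 24.3 CPM each in challenged knockout replicates 1 to 3, 1 count in wild-type challenged replicate 2, and 0 elsewhere. As with Rpl3-ps1, replicate 3 was highest. Of 765 copy rows, these 3 were the only ones above 10 CPM in all challenged knockout libraries and under 1 CPM in all others. Rpl29 itself measured 555, 577 and 627 CPM in challenged wild-type and 527, 428 and 380 CPM in challenged knockout libraries, without overlap. With its copies added the difference was smaller but still called (log2 -0.40 ± 0.10 for the row, -0.29 ± 0.09 for the sum, edgeR adjusted p = 0.0147), though the summed libraries then overlapped at 561 and 559 CPM. Whether reads from Rpl3 and Rpl29 themselves or from the copies were counted cannot be told apart from these counts.

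**Figure D4:**
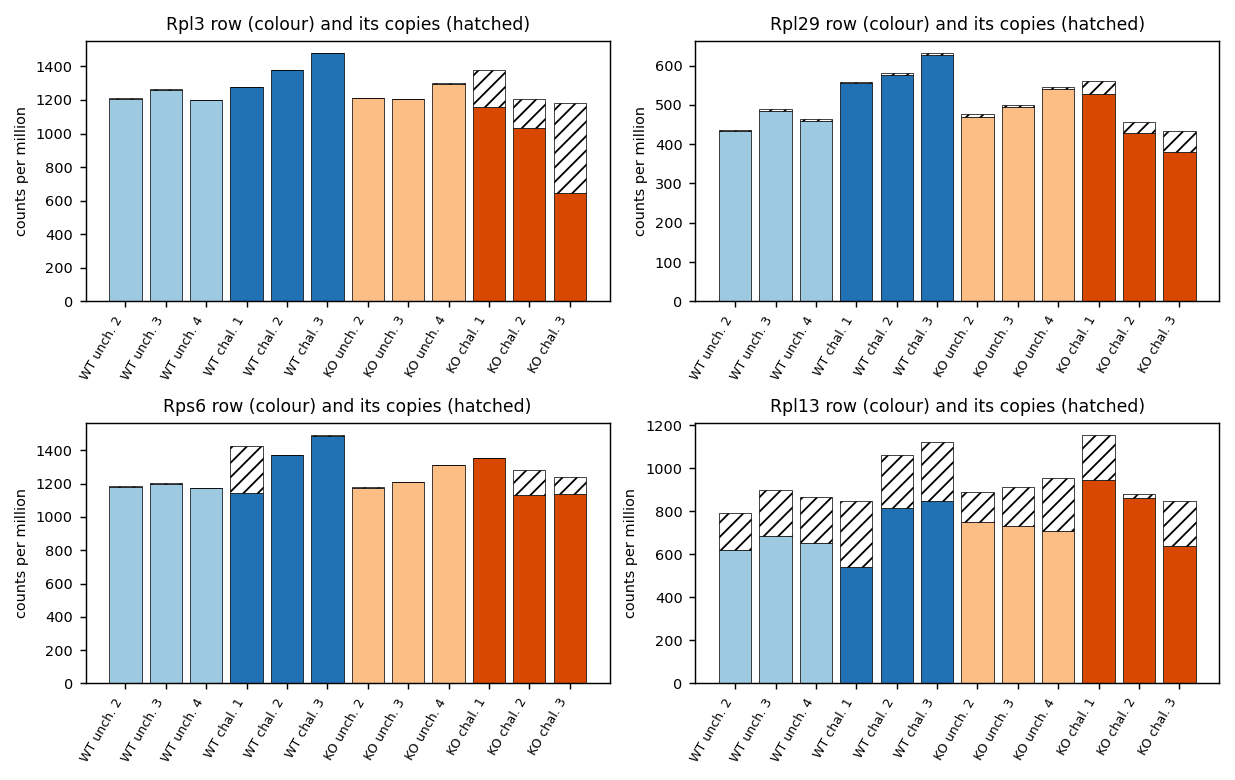
CPM placed on the row of Rpl3, Rpl29, Rps6 and Rpl13 (colour) and on their copies (hatched) in each library; the axes start at 0 and differ between panels. Copies of Rpl3 and Rpl29 fill up in the 3 challenged knockout libraries, those of Rps6 in 3 challenged libraries of both genotypes, and those of Rpl13 shrink to 2.2% in knockout challenged replicate 2.

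Copies were common among the members. Rows matching a member's transcript at 90% identity or more numbered 765, of which 751 are annotated as pseudogenes, and 77 of 81 members had at least 1. Together they held 12.1% of the counts of members and copies. For 7 members copies held over 50%: Rpl5 (96.4%), Rps12 (95.0%), Rpl27 (93.8%), Rpl12 (93.7%), Rpl10 (65.8%), Rpl27a (63.8%) and Rps23 (51.6%). For 23 members they held at least 5%.

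**Figure D5:**
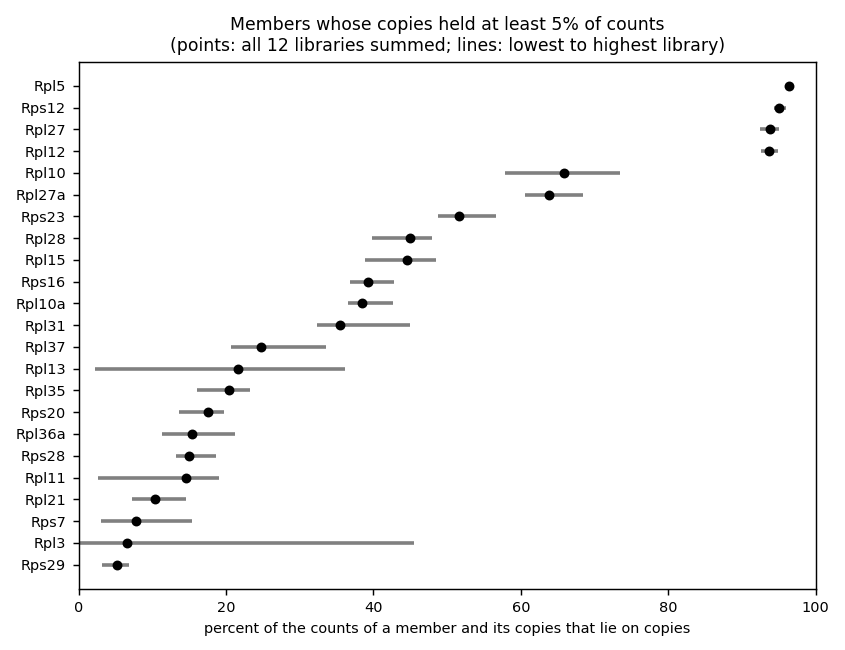
Percent of the counts of a member and its copies that lie on copies, for the 23 members at 5% or more, as the sum over all libraries (points) and the range over libraries (lines). The share is steady for Rpl5 (96.1% to 96.9%) and ranges widely for Rpl3 (0.0644% to 45.5%), Rpl13 (2.2% to 36.1%) and Rpl11 (2.64% to 19.0%).

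Adding copies left the broad pattern in place and moved single members. With all copies added, 48 members rose on challenge of wild-type (32.6% of all genes in that fit), 11 rose in the knockout (15.7%), 0 were called between unchallenged genotypes (6.67% of all genes higher and 5.12% lower), 18 were lower in challenged knockout (26.1%), and 11 became 16 for the difference between the challenge changes (18.6%). Rps12 was not called in wild-type on its own row (log2 0.10 ± 0.07) and rose with copies (0.41 ± 0.06, edgeR adjusted p = 3.31e-05), from 832, 842 and 841 CPM to 1125, 1058 and 1150 CPM. Gm12918, a copy of Rpl13, measured 18.4 CPM in knockout challenged replicate 2 and 140 CPM or more in every other library.

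Members divided by a pyrimidine run, coding length or the share of copies had medians close to each other in wild-type. In wild-type, the median change was 0.23 for the 27 members with a pyrimidine run in the start window (15 rose). It was 0.24 for the 33 with a window but no run (19 rose). It was 0.24 for members with coding length above the median and 0.23 for the rest, and 0.24 and 0.23 for members whose copies held at least 5% of counts or less. By subunit the wild-type medians lay further apart, at 0.17 (40S) and 0.25 (60S). In the knockout, members whose copies held at least 5% of counts had a median of 0.12, and the rest 0.04. Differences between these medians were not tested.

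Most listed elongation and initiation factor genes also rose on challenge of wild-type. Of 19 elongation factor and further TOP genes 13 rose and 0 fell (median 0.29), and of 35 initiation factor genes 26 rose and 1 fell (median 0.36), where 32.4% of all genes rose and 30.9% fell. Eef1g, a subunit of the elongation factor that recharges eEF1A, went from 561, 554 and 530 CPM to 809, 788 and 852 CPM (log2 0.57). Eif5a, which helps the ribosome through proline stretches, went from 346, 352 and 353 CPM to 609, 640 and 701 CPM (0.89 in wild-type, 0.38 in knockout). Neither pair of groups overlapped. Rack1, the scaffold protein on the 40S head, rose by 0.25 ± 0.09. Npm1 (0.94), Eif2s3x (0.59) and Btf3 (0.51) of the first list and Eif2s2 (0.96), Eif2s1 (0.96) and Eif3b (0.64) of the second had the smallest p-values beside these.

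Mitochondrial ribosomal proteins, which build a separate ribosome, were mostly called higher in wild-type. Of 79 tested, 64 rose and 6 fell in wild-type (median 0.49), beside 32.4% and 30.9% of all genes. In the knockout 30 rose and 1 fell (median 0.21), beside 15.6% and 11.5%. After challenge 52 were lower and 1 higher in the knockout than in wild-type (median -0.30), beside 25.9% and 22.7%. Mrpl12 (1.12), Mrps18b (1.07), Mrpl45 (1.05) and Mrpl51 (0.90) had the smallest p-values in wild-type. Whether their changes exceed those of the cytosolic members was not tested.

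Genes that control TOP mRNAs and mTORC1 showed no common direction in wild-type, with 6 of 20 rising and 8 falling, near the 32.4% and 30.9% of all genes. Larp1, the binder of TOP mRNAs, went from 198, 205 and 196 CPM to 361, 351 and 364 CPM in wild-type and from 186, 178 and 188 CPM to 256, 227 and 232 CPM in knockout libraries. All challenged libraries lay above all unchallenged ones, and the challenge changes (0.84 and 0.37) differed by -0.47 (edgeR adjusted p = 0.000356). Myc, a transcription factor that drives ribosome production, rose by 1.16 and 0.56, with a difference of -0.61 (adjusted p = 0.000198). Eif4ebp1, the translation inhibitor that mTORC1 inactivates, rose by 0.92 and 0.50. Sesn2, an amino acid sensor of the pathway, rose by 0.84 in wild-type and was not called in knockout (0.18). Other genes of this list were lower after challenge of wild-type, without overlap of libraries. Group means went from 305 to 227 CPM for Eif4ebp2, from 79.8 to 60.2 CPM for Tsc1 and from 88.7 to 68.6 CPM for Tsc2. Rptor measured at least 87.8 CPM in unchallenged and at most 75.4 CPM in challenged wild-type libraries.

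Of 16 tested chaperones of ribosomal proteins and quality control genes, 8 rose and 0 fell in wild-type (median 0.22), beside 32.4% and 30.9% of all genes. In the knockout 4 rose and 1 fell, beside 15.6% and 11.5%. Nap1l1, a chaperone of histones and Rps6, rose by 0.93 and 0.72. Grwd1, the chaperone of Rpl3, rose by 0.93 and 0.53. Pelo, which rescues stalled ribosomes, rose by 0.58 in wild-type. Sqstm1, an autophagy receptor, rose in wild-type (0.61) and not in knockout (0.00), and these changes differed by -0.60 (edgeR adjusted p = 0.0003).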

How the data were processed

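The authors deposited 1 table of counts per gene and library, without normalization, for 12 libraries in 4 groups of 3 of polyA RNA (Trizol, TruSeq, per the labels' protocols). The tools named are RSEM 1.3.0, Bowtie2 2.2.8, Trim Galore 0.4.1 and bcl2fastq, with build GRCm38, per the submitters' processing notes. RSEM divides reads that match several transcripts by estimated probability, so counts of members and near-identical copies depend on that step. The values analysed here are whole numbers; the annotation release and the rounding step are not stated in any source used here.

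Library totals were 17624530 to 23665679 counts. Reads carry no molecular identifiers. Members, lists and named-gene rule were chosen with earlier results of these data known. The text names, per comparison, the 5 largest called changes in each direction. It also names paralogs with their parents, the stalk, Rpl5, Rpl11, Rpsa, Rps6, Rps19, Rps3, Rpl13a, Rpl4 and Rack1. X-linked and ubiquitin-fused members, Rpl3 with its copy and the 3 most and 3 least abundant per coding length are named too. Of each other list up to 4 genes are named. Other members, and Eif4ebp2, Tsc1, Tsc2 and Rptor, were named after their values were seen.

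All 16694 genes kept by filterByExpr were fitted in 1 model with TMM scaling using the robust quasi-likelihood test of edgeR 4.0.16 (R 4.3.3), adjusted by Benjamini-Hochberg per comparison and called at an adjusted p below 0.05. Levels are TMM-scaled CPM. The fit was tested on simulated counts. Of 50643 genes, 50338 matched GENCODE vM21. Copies were rows whose transcript aligned to a member's (BLAST 2.17.0, at least 90% identity, 100 bases and 50% of the copy). RefSeq start sites came from GRCm38.p6. Libraries of a group differed by 3.27 to 26.0 times the counting noise (1 would be noise alone), so none was a duplicate. Replicate numbers were not used as pairs: residuals of equal short-title numbers correlated between -0.316 and 0.25. The long titles number the unchallenged libraries otherwise, and pairing by them was not checked. Alternatives covered scaling, filters, DESeq2 1.42.0, a replicate block, copies added to members and each library left out.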

Additional observations from a re-analysis of the deposited data

Results flagged for a closer look

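For 11 members the challenge changes differed between the genotypes by the interaction term of the edgeR fit over all genes (adjusted p below 0.05). They are 13.6% of the members, under the 18.5% of all genes that were lower and the 16.7% that were higher by that term. Each value below is the challenge change in knockout minus that in wild-type, on the log2 scale.

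Rps27l differed by -0.96, with wild-type rising more. Rpl7l1 differed by -0.55. Rpl29 differed by -0.53, and by -0.42 with its copies added. Rpl7a differed by -0.44, Rpl41 by -0.42 and Rps2 by -0.41. Rpl24, a protein at the subunit interface, Rps26, which lines the mRNA exit channel, and Rpl35 each differed by -0.36. Rpl28 differed by -0.34. Rpl32 differed by -0.29 and was the least of the 11, and its call was lost in 12 alternative fits. Groups of 3 libraries were not screened for single outlying libraries.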

How the results depend on the processing

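Of 4522 recomputed values over 190 results (38 named members in 5 comparisons), 4278 kept their direction or stayed uncalled, 131 lost their call, 111 gained one and 2 reversed. The reversals were those of Rps12 in the difference between challenge changes, from 0.07 to -0.29 both with copies named -ps and with all copies added. Calls of Rps2, Rps20 and Rpl22 in the knockout and of Rps4l between challenged genotypes were among those lost under several alternatives. Between challenged genotypes, calls of Rps20, Rpl32, Rpl27 and Rpl6 were lost in 16, 11, 10 and 8 of 24 alternatives. Rpl32 lost its call for the difference between challenge changes in 12. On challenge of wild-type, 2 members fell with upper-quartile scaling. In the knockout, 3 rose with upper-quartile scaling, 5 when only the compared groups were fitted, and 1 fell by DESeq2. Between unchallenged genotypes, 3 were higher when only the compared groups were fitted. Between challenged genotypes, 2 were higher with upper-quartile scaling and 1 with a filter of 1 CPM in 3 libraries. There 26 were lower by DESeq2 and 11 when only the compared groups were fitted. The difference between challenge changes gave 21 lower members by DESeq2. Leaving out wild-type unchallenged replicate 4 and knockout challenged replicate 3 together, chosen after seeing the data, gave 5 rising in the knockout and 11 lower between challenged genotypes.

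With each library left out in turn, 34 to 56 members rose and 0 fell in wild-type, 1 to 8 rose and 0 to 4 fell in the knockout, 0 to 1 were higher and 0 lower between unchallenged genotypes, 0 to 1 higher and 10 to 40 lower between challenged genotypes, and 0 higher and 9 to 35 lower for the difference between challenge changes. With a replicate block by short-title numbers, which were not shown to pair the libraries, 38 members rose in wild-type and 4 in the knockout. With that block 16 were lower between challenged genotypes and 11 for the difference. Under the block Rps19 lost its wild-type call (adjusted p = 0.057), Rps2, Rps20, Rps26 and Rpl41 lost theirs in the knockout (0.119, 0.127, 0.0783 and 0.106), Rpl32 and Rps20 theirs between challenged genotypes (0.0604 and 0.0876) and Rpl32 that of the difference (0.0626). With each library left out, the median over members ran from 0.18 to 0.26 in wild-type, 0.00 to 0.08 in the knockout, 0.03 to 0.10 and -0.20 to -0.07 between unchallenged and challenged genotypes, and -0.26 to -0.12 for the difference. Depth was at least 17624530 counts per library. For these changes of calls the cause was not tested.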
